A study of Mus musculus with 2 samples.

Results

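Lymphatic-type endothelial cells (ECs) were followed in single-cell RNA sequencing of mouse embryos at E13.5, in 1 control library and 1 library of embryos expressing Pik3caH1047R. Kept cells had more than 2000 and fewer than 9000 detected genes and less than 10% mitochondrial transcripts. A kept cell was called an EC when at least 4 of the 8 EC genes Pecam1, Cdh5, Tie1, Emcn, Egfl7, Plvap, Esam and Ptprb had at least 1 unique molecular identifier (UMI, the tag that marks a captured transcript) and the leukocyte gene Ptprc had none. An EC was called lymphatic-type when it also carried at least 1 Prox1 UMI and at least 1 UMI of Lyve1, Pdpn, Reln or Flt4, which are called second markers below. The rule gave 208 lymphatic-type cells among 892 ECs and 6272 kept cells, with 31 in the control library and 177 in the mutant library. The members were thus selected on their counts of Prox1, of the second markers and of the EC genes, and contrasts of these counts between the members and the other ECs are given as descriptions.

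The cells were sorted by FACS for eYFP from the upper body of the embryos, dissected above the liver, and were labelled as pharyngeal arch. Control embryos carried Isl1-Cre and R26R-eYFP, and mutant embryos carried Isl1-Cre, R26R-eYFP and Pik3caH1047R, an activating allele of the catalytic PI3K subunit that is silent at the R26R locus until Cre removes a stop cassette. Cre was driven by the Isl1 promoter in progenitors of the cardiopharyngeal mesoderm and their progeny, so the label and the allele were not restricted to ECs. Each library pooled 3 eYFP+ embryos on a mixed C57BL/6J and Crl:CD1(ICR) background. The comparison asks how lymphatic-type ECs of this lineage differ in transcripts when the allele is switched on. With 1 library per genotype there is no replicate and no test between genotypes, and the 95% intervals below cover counting error only, not differences between embryos, dissections or libraries.

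Lymphatic ECs arise in the embryo mainly from venous endothelium and from local progenitors, and the transcription factor Prox1 starts and maintains their identity. Their growth is driven by Vegfc acting on the receptor Flt4 (VEGFR3), with Nrp2 as co-receptor, and the receptor signals in part through PI3K. Mature lymphatic capillaries express the hyaluronan receptor Lyve1, the mucin-like glycoprotein Pdpn, the secreted matrix protein Reln and the dendritic cell chemokine Ccl21a. Lyve1 and Flt4 are also found on blood ECs of the embryo, whereas Prox1 is also used by muscle, neurons, cardiomyocytes and hepatoblasts.

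The kept control cells held a median of 20412 UMIs and the kept mutant cells a median of 16836. Members were deeper than the other ECs in both libraries, with medians of 27182 UMIs against 19279 in control and 24506 against 15595 in mutant. In all, the members held 953406 UMIs in control and 4826613 in mutant. Prox1 was detected in 26.1% of control ECs and 29.2% of mutant ECs, and also in 61.2% and 46.7% of cells marked as skeletal muscle, 42.8% and 40.5% of neurons and 6.83% and 7.34% of mesenchymal cells, a class that is not known for Prox1. The median depths of the mesenchymal cells were 19171 and 15302 UMIs, close to those of all ECs (20372 and 17438). Judged from Xist and 4 genes of the Y chromosome, 30 of 31 control members were female-like cells and 0 male-like, whereas the mutant members held 60 female-like and 100 male-like cells. Both libraries shared 28 cell barcodes, 2 of them in mutant members.

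The lymphatic label held for part of the members. Prox1 was counted at 1 to 35 UMIs per member in control with a median of 5, and at 1 to 41 UMIs in mutant with a median of 2. Just inside the rule, 8 control and 85 mutant members rested on a single Prox1 UMI. These cells were 5.23% and 11.5% of the ECs. The mesenchymal shares of 6.83% and 7.34% count any number of Prox1 UMIs and ask for no second marker, so they are not a like measure. On that measure ECs stood at 26.1% and 29.2%. Just outside the rule, 84 control and 326 mutant ECs had a second marker and no Prox1 UMI. Among control ECs with Prox1 and a second marker the count had a gap, since 8 cells had 1 UMI, 1 cell had 2 and the other 22 had at least 4. Members with at least 4 Prox1 UMIs are called Prox1-high and the rest Prox1-low, a limit that was chosen after the counts were seen. There were 22 Prox1-high members in control (71.0% of its members) and 41 in mutant (23.2%), and 9 and 136 Prox1-low members.

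Second markers, like Prox1, chose these cells, so their counts only describe the classes. In control, 16 of 22 Prox1-high members carried 3 or 4 of the second markers, against 0 of 9 Prox1-low members. In mutant, they were 16 of 41 and 8 of 136 cells. Flt4 was the only second marker in 7 of 9 control and 74 of 136 mutant Prox1-low members. Flt4 was also detected in 63.7% of control and 53.0% of mutant ECs without Prox1.

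**Figure D1:**
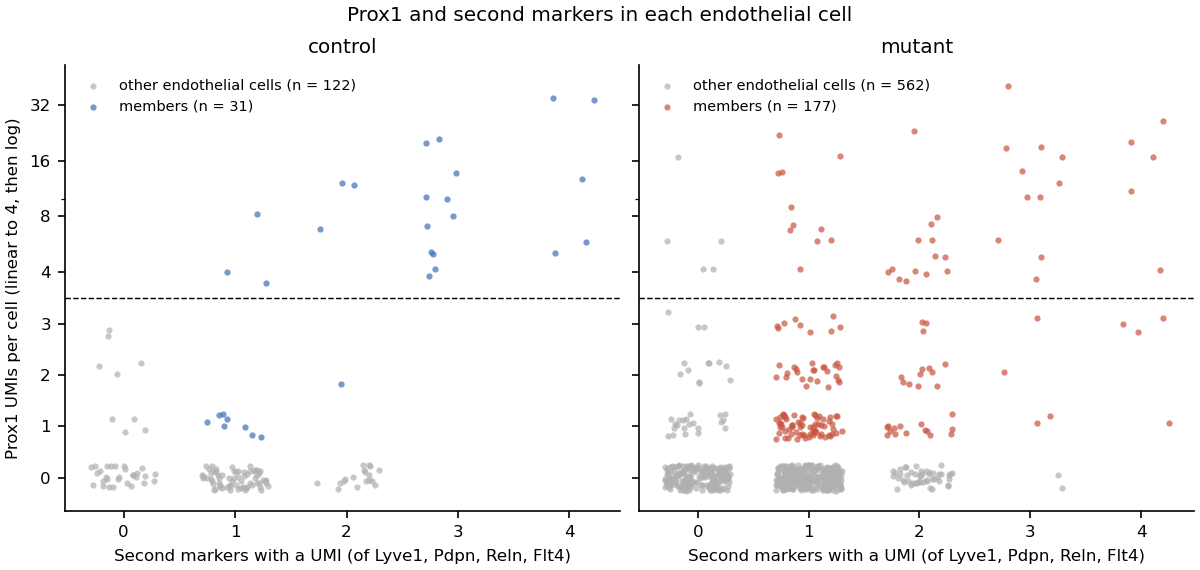
Prox1 UMIs (y axis, linear to 4 and logarithmic above) against the number of second markers with a UMI (x axis) in each EC of the control and mutant library, with small random offsets so that points do not cover each other. The dashed line separates Prox1-high members above from the rest; 22 of 31 control members and 41 of 177 mutant members lie above it.

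A list of 20 lymphatic genes that the rule did not use bears on the label. Summed over these genes, Prox1-high control members held a median of 59.8 UMIs per 10000 UMIs of the cell (lowest 5.91, highest 125), and control ECs without Prox1 a median of 11.5 (lowest 0, highest 42.1). Prox1-low control members had a median of 18.8 (5.04 to 24.4). In the mutant library the medians were 31.1 in Prox1-high members (2.77 to 95.2), 17.7 in Prox1-low members (2.66 to 76.4) and 15.9 in ECs without Prox1 (0 to 59.8). The Prox1-high medians of both libraries stood above those of the other ECs, although the lowest cells lay within their range. The middle 50% of Prox1-low cells lay at 11.6 to 19.8 in control and 13.4 to 24.1 in mutant, beside 8.01 to 15.7 and 10.1 to 21.6 in ECs without Prox1. Prox1-low medians were thus above those of ECs without Prox1, in control also above their upper quartile, but nearer to them than to the Prox1-high medians. On this list the lymphatic label is not clear for Prox1-low cells, which are named below by their Prox1 count only.

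**Figure D2:**
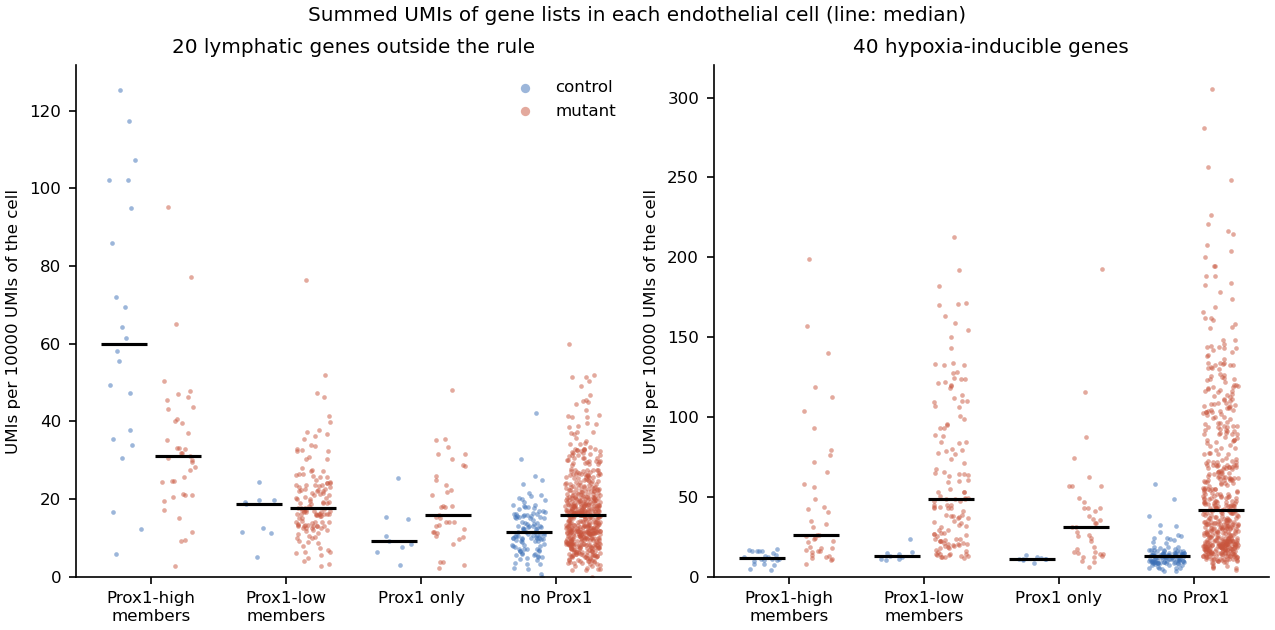
Summed UMIs of 20 lymphatic genes outside the rule (left) and of 40 hypoxia-inducible genes (right) per 10000 UMIs of each EC, by Prox1 class, with control in blue, mutant in red and black lines at the medians. Prox1 only stands for ECs with Prox1 but no second marker. In Prox1-high members the lymphatic median was 59.8 in control and 31.1 in mutant, and the hypoxia-inducible median was 11.9 and 25.9.

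The share of members among ECs was 20.3% in control (exact binomial interval 14.2 to 27.5%) and 24.0% in mutant (20.9 to 27.2%), a difference within counting error. Prox1-high cells made up 14.4% of the control ECs (9.24 to 21.0%) and 5.55% of the mutant ECs (4.01 to 7.45%). These shares are a description, since the Prox1 count chose the cells at a limit set after the counts were seen, and the ECs of the libraries differ in depth. Measured against all kept cells, Prox1-high members were 0.791% of the control cells (0.496 to 1.19%) and 1.18% of the mutant cells (0.845 to 1.59%), and ECs as a whole were more numerous in the mutant library. Detection of Prox1 depends on depth. With every cell thinned to 5000 UMIs before the rule was applied, members were 8.45% of control ECs and 6.83% of mutant ECs.

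Within each library, levels were compared as counts per 1000000 UMIs (CPM) summed over a class of cells. A gene was called when its level reached 100 CPM on at least 1 side and the whole counting interval of the ratio lay beyond 1.5-fold. Against ECs without Prox1, Prox1-high members were called higher in both libraries for 23 of 1890 genes (1.22%) and lower for 45 (2.38%). In control alone these shares were 7.78% higher and 4.49% lower, and in mutant alone 2.97% and 4.25%. Beside the rule genes Prox1, Pdpn and Flt4, the higher genes included Fxyd6, a regulator of the sodium pump, with log2 ratios of 2.78 in control and 2.26 in mutant. Tbx1, a transcription factor gene of the pharyngeal mesoderm that is needed for lymphatic growth, stood at 191 CPM in Prox1-high members and 38.0 CPM in ECs without Prox1 in control, and at 163 and 35.3 CPM in mutant. Nfatc1, a calcineurin-regulated transcription factor of valve and lymphatic endothelium, had ratios of 2.38 and 1.77, with 56% of its control UMIs from 1 cell. The matrix glycoprotein gene Mmrn1 had ratios of 2.34 and 1.45, and Nrp2 ratios of 2.69 and 1.32. Kctd12, Rnf141 and the neurotensin gene Nts were called higher as well, Nts with ratios of 3.07 and 1.76.

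The genes called lower in Prox1-high cells of both libraries included genes of blood ECs. Nrp1, the co-receptor of Vegfa on blood vessels, stood at 75.6 against 465 CPM in control (log2 ratio -2.62) and at 74.1 against 245 CPM in mutant (-1.73). Cd34, a sialomucin of blood ECs, had ratios of -3.01 and -1.56. Eln and Fbln5, which encode elastin and an elastic fibre protein, had ratios of -4.73 and -1.93, and of -2.26 and -2.47. Mcam, Anxa3, Sparcl1, Tmem255a and the peptide ligand gene Apln were lower too, as was Esam, a junction gene of the EC rule. Of 18 arterial genes the median ratio was -2.03 in control and -1.08 in mutant, beside -0.01 and -0.00 over all measured genes. Taken over all members against all other ECs, the contrast was smaller. In control 6.27% of genes were called higher and 2.47% lower, and in mutant 0.394% and 0.69%. In both libraries 3 of 1846 genes were called higher (0.163%), namely Dlk1, Mmrn1 and Prox1, the last of which the rule required in every member. Called lower in both were 5 genes (0.271%), namely Cd34, Eln, Fbln5, Gja4 and Mecom.

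**Figure D3:**
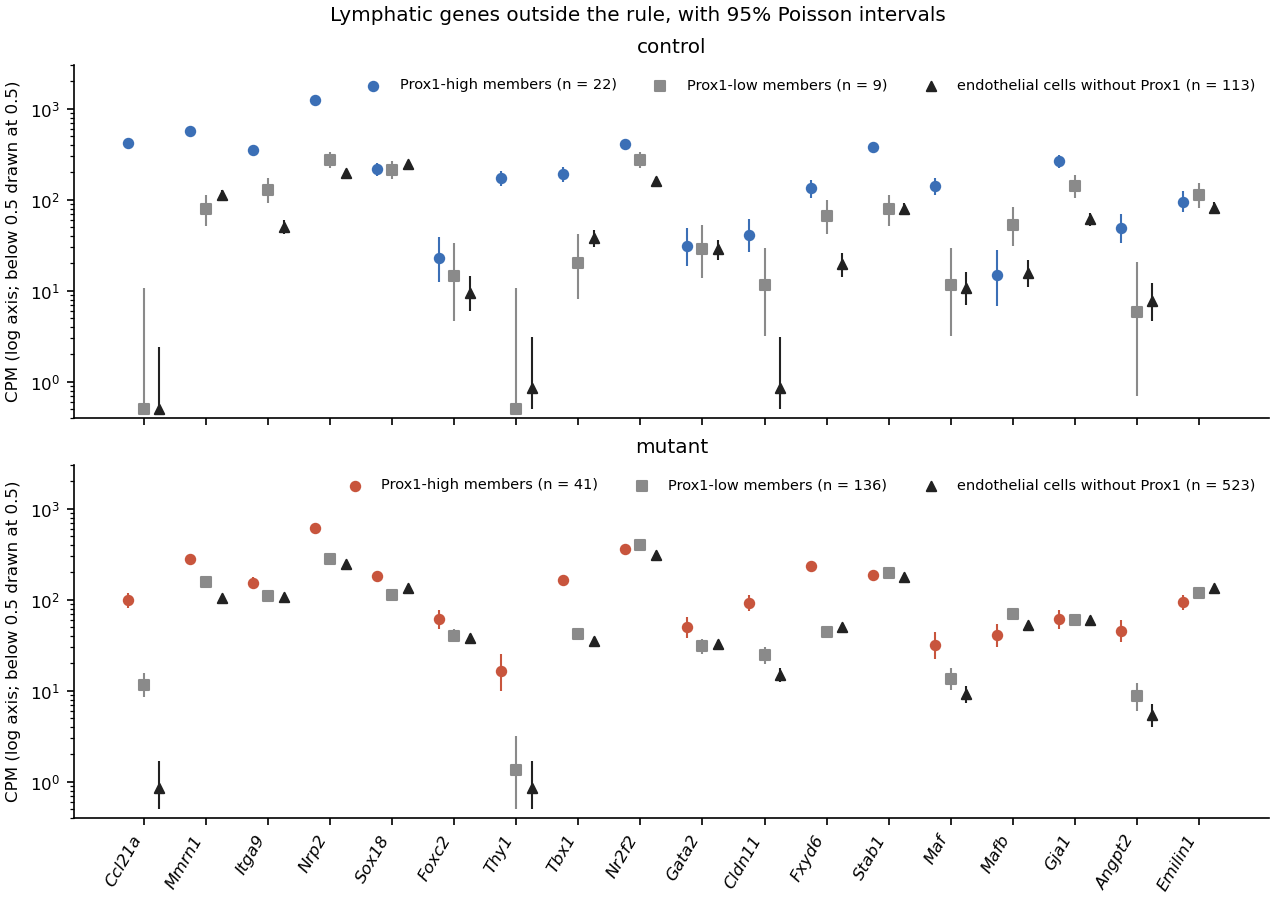
Levels in CPM (log axis, values below 0.5 drawn at 0.5) of the 18 lymphatic genes outside the rule that had at least 20 UMIs in Prox1-high members, in the control library (top) and the mutant library (bottom). Circles are Prox1-high members, squares Prox1-low members, triangles ECs without Prox1, and bars 95% Poisson intervals. Ccl21a, Thy1 and Maf stand far above the other classes in control, and Gja1 and Stab1 are close to ECs without Prox1 in mutant.

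Lymphatic genes set Prox1-high cells apart more in control than in mutant. Over the lymphatic genes outside the rule with at least 20 UMIs in the pair of classes, the median log2 ratio of Prox1-high members over ECs without Prox1 was 2.33 in control (16 of 19 higher, 11 called) and 0.64 in mutant (16 of 20 higher, 4 called). Of all tested genes, 7.78% were called higher in control and 2.97% in mutant. Gja1, which encodes the gap junction protein connexin 43 of lymphatic valves, had a ratio of 2.12 in control and 0.01 in mutant. For the scavenger receptor gene Stab1 the ratios were 2.27 and 0.06, and for Itga9, which encodes an integrin subunit of lymphatic valves, 2.79 and 0.52. In the mutant library Gja1 and Stab1 were therefore at nearly the same level in Prox1-high cells as in ECs without Prox1. Fxyd6 and Tbx1 kept a wide gap in both.

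Between genotypes, Prox1-high members had 112 of 2374 genes called higher in mutant (4.72%) and 186 called lower (7.83%). Scaled by the TMM factor of edgeR or by the median ratio of genes in place of total UMIs, every log2 ratio in these cells is higher by 0.14 or 0.13, and the split becomes 145 higher and 143 lower, or 143 and 146. Prox1 itself, on chromosome 1 of GRCm38 (190118035 to 190170714, minus strand), was close in both libraries, at 408 CPM in the 22 control cells (interval 359 to 462) and 376 CPM in the 41 mutant cells (341 to 413). The log2 ratio, mutant to control, was -0.12 (-0.35 to 0.11), and 0.02 with either other scaling. A ratio of -1.03 over all members came with the larger part of Prox1-low cells in the mutant library. The Prox1 count chose the Prox1-high cells, so its level is a description.

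Among the second markers, which also chose the members, Reln and Flt4 were lower in mutant Prox1-high cells. Reln (chromosome 5, 21884454 to 22344702) was detected in 19 of 22 control and 22 of 41 mutant cells. Its level was 370 CPM in control and 77.6 CPM in mutant, 4.77-fold lower (log2 ratio -2.25, interval -2.62 to -1.89). Flt4 (chromosome 11, 49609263 to 49652739) was at 322 and 137 CPM, a ratio of -1.23 (-1.54 to -0.92), whereas in ECs without Prox1 it was at 70.4 and 71.2 CPM. Thinned to 5000 UMIs per cell, Flt4 was found in 77.3% of control and 40.0% of mutant Prox1-high cells. Pdpn (chromosome 4, 143267431 to 143299564) was at 105 and 113 CPM, a difference within counting error, but 41% of its mutant UMIs lay in 1 cell and it was detected in 15 of 22 against 14 of 41 cells. Lyve1 (chromosome 7, 110850607 to 110863239) went the other way, from 49.3 CPM in control to 149 CPM in mutant (1.60, 1.03 to 2.21), with 57% of the control UMIs from 1 cell.

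Of the lymphatic genes outside the rule, 18 had at least 20 UMIs in Prox1-high members. In mutant, 8 of them were called lower and 0 higher, 13 of 18 ratios were below 0, and the median ratio was -0.24. With either other scaling the median was -0.10, 8 genes were called lower and 1 higher. Over all 9310 genes with at least 20 UMIs the median was -0.07, with 186 called lower and 112 higher. Of all genes tested in Prox1-high members, 7.83% were called lower and 4.72% higher. The 8 genes were Ccl21a, Mmrn1, Itga9, Nrp2, Thy1, Stab1, Maf and Gja1, and without the cell of highest count of each gene 6 were called lower, all but Itga9 and Stab1. In ECs without Prox1 the same list had a median of 0.54, with 3 genes called higher and 1 lower (all tested genes: 7.04% higher and 6.11% lower). In all other ECs, which add the cells with Prox1 but no second marker, 6.87% of the tested genes were called higher and 5.8% lower.

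Thy1 showed the largest difference of these 8. It encodes a surface glycoprotein of lymphatic ECs, lies on chromosome 9 (44043384 to 44048579) and was detected in 15 of 22 control but 7 of 41 mutant Prox1-high cells. Its level was 173 CPM in control (interval 141 to 209) and 16.4 CPM in mutant (9.86 to 25.6), 10.5-fold lower, with a log2 ratio of -3.40 (-4.19 to -2.68). No single control cell gave more than 12% of its UMIs. In ECs without Prox1, Thy1 was at 0.864 and 0.860 CPM.

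Ccl21a, the chemokine that draws dendritic cells into lymphatic vessels, had 17 of 22 positive control cells and 15 of 41 positive mutant cells. Its level was 419 CPM in control and 98.3 CPM in mutant (-2.09, -2.42 to -1.77). Ccl21a has near-identical copies in the genome, between which the counting could have split or dropped reads, so its level is uncertain. The transcription factor gene Maf, which acts downstream of Vegfc, was at 140 and 31.9 CPM (-2.13, -2.73 to -1.56), and Gja1 at 265 and 61.2 CPM (-2.11, -2.54 to -1.70).

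Nrp2 (chromosome 1, 62703285 to 62818695) had the most UMIs of the list. The co-receptor gene was found in 21 of 22 control and 40 of 41 mutant Prox1-high cells, with a median of 12.3 UMIs per 10000 in control (0 to 64.2) and 5.10 in mutant (0 to 50.6). Summed, it was at 1258 and 615 CPM, 2.04-fold lower (-1.03, -1.18 to -0.88). The ranges of the libraries overlapped almost fully. Mmrn1 was at 569 and 284 CPM (2.01-fold lower), Stab1 at 378 and 187 CPM (-1.02) and Itga9 at 349 and 154 CPM (-1.18), with 32% of the control UMIs of Itga9 from 1 cell.

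Other lymphatic genes did not follow. Nr2f2, the venous transcription factor that acts with Prox1, was at 409 and 358 CPM (-0.19, -0.42 to 0.04). Sox18, an upstream activator of Prox1, was at 215 and 182 CPM (-0.24, -0.57 to 0.08), and Tbx1 at 191 and 163 CPM (-0.23, -0.57 to 0.12). For each of these 3 genes the interval included 0. Foxc2, a transcription factor of lymphatic valves, was at 23.0 and 61.2 CPM (1.41, 0.57 to 2.35), the tight junction gene Cldn11 at 41.1 and 92.2 CPM (1.17, 76% of control UMIs from 1 cell) and Fxyd6 at 133 and 238 CPM (0.84, 0.47 to 1.21). For these 3 the interval was above 0 but the call was not reached.

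**Figure D4:**
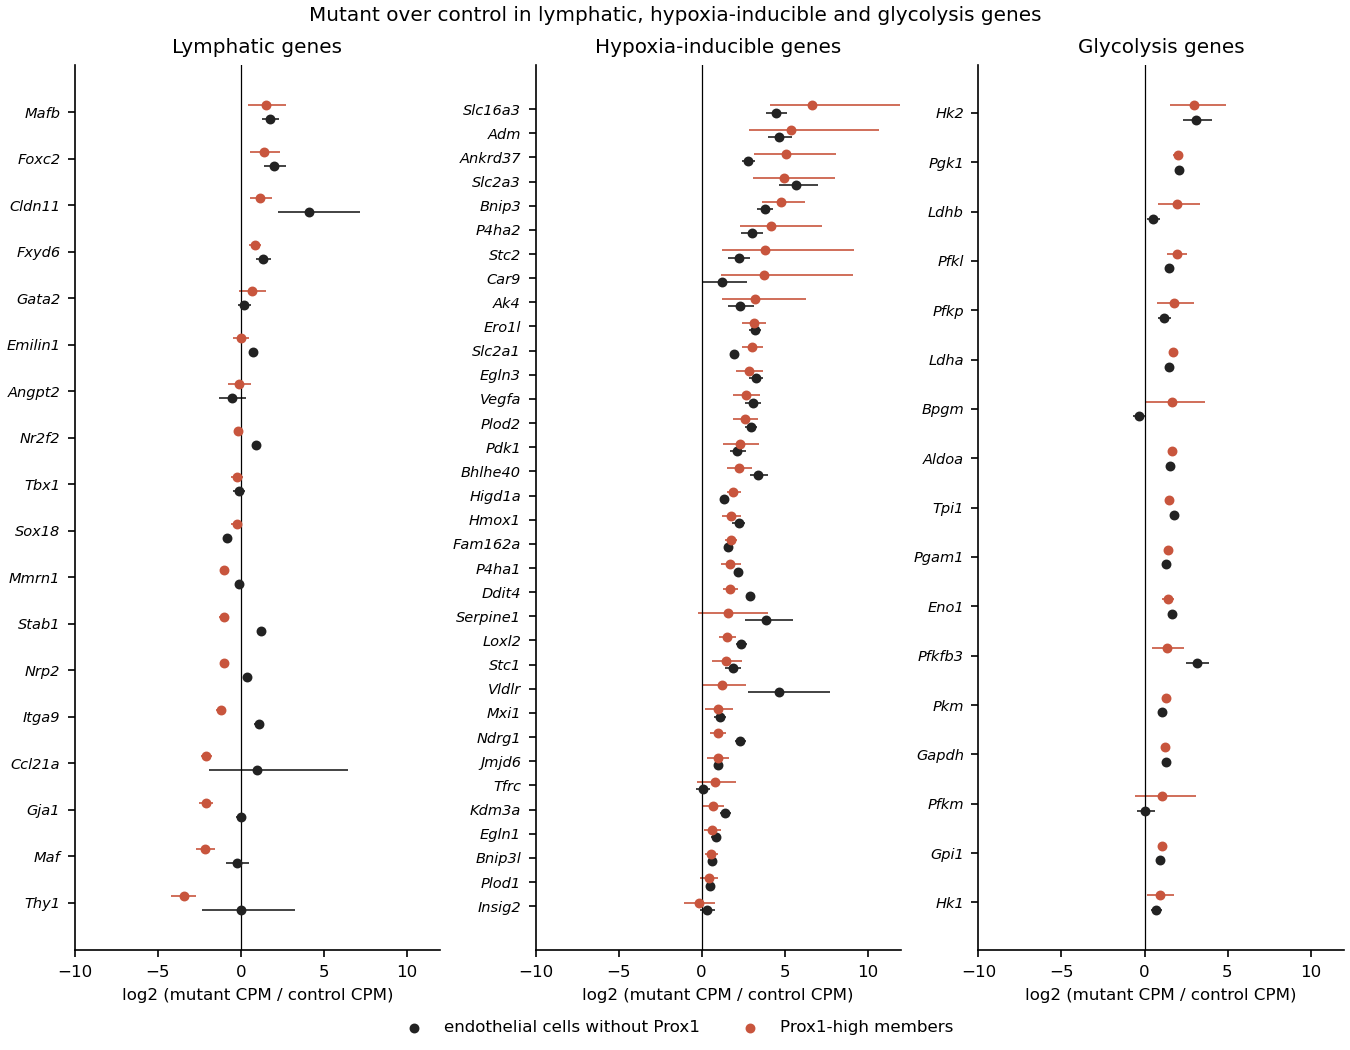
Log2 ratios of mutant over control CPM for lymphatic genes outside the rule, hypoxia-inducible genes and glycolysis genes with at least 20 UMIs in Prox1-high members, in Prox1-high members (red) and ECs without Prox1 (black), with 95% counting intervals clipped to the axis. Of the lymphatic genes, 13 of 18 lie below 0 in Prox1-high members, from Thy1 at -3.40; all 17 glycolysis genes and 33 of 34 hypoxia-inducible genes lie above 0.

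In Prox1-low members the lymphatic genes gave another picture, with 15 of 19 measured genes higher in mutant and a median of 0.43. Of these, 1 was called higher and 1 lower, beside 112 and 230 of all 11124 measured genes (4.69% and 9.62% of the 2390 tested). Mmrn1 was at 78.2 CPM in the 9 control cells and 158 CPM in the 136 mutant cells, and Stab1 at 78.2 and 199 CPM. The 9 control cells were the deeper ones, with a median of 48283 UMIs against 24542 in the mutant cells. In mutant ECs without Prox1, Mmrn1 was at 104 CPM and Stab1 at 180 CPM. Over all 31 and 177 members together, 6 of the 20 lymphatic genes were called lower (all tested genes: 9.57% lower and 5.45% higher) and the median was -0.59. The calls in members split into 127 higher and 223 lower by total UMIs, 171 and 161 by the TMM factor and 152 and 176 by the median ratio of genes, which add 0.18 and 0.12 to every log2 ratio. The median over the members mixes a control library of mostly Prox1-high cells with a mutant library of mostly Prox1-low cells.

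The largest differences among Prox1-high cells that many cells shared concerned genes outside the list. Mrc1, which encodes the mannose receptor of macrophages and of lymphatic endothelium, was found in 16 of 22 control cells at 143 CPM (115 to 176) and in 1 of 41 mutant cells, with 1 UMI (0.862 CPM). Its log2 ratio was -7.37, with a wide interval of -12.69 to -4.86. Of the 9 myeloid markers, C1qa and C1qc were at 0 in the Prox1-high cells of both libraries, and the summed myeloid level was 163 CPM in control, of which Mrc1 made up 143 CPM, and 19.0 CPM in mutant. At least 3 of these markers were found in 1 of 22 control and 0 of 41 mutant Prox1-high cells. Prkcq, a protein kinase C gene, was at 102 and 2.59 CPM (15 and 3 cells), and Slc9a9, a sodium-proton exchanger gene of endosomes, at 136 and 5.17 CPM (17 and 5 cells). Without the cell of highest count of each gene, Mrc1 and Slc9a9 were still called lower and Prkcq was not.

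Some of the largest calls came from single cells. In Prox1-high cells, Btg4, Hs6st3, Plxdc2, Sfrp2 and Slc7a14 were among the 8 largest falls, with 88 to 99% of their control UMIs in 1 cell, and the hepatoblast genes Afp and Alb were among the 8 largest rises, with 99% of their mutant UMIs in 1 cell. In mutant Prox1-high cells the 6 hepatoblast markers summed to 1376 CPM, of which 98.1% lay in 1 cell. In control Prox1-high cells they summed to 6.58 CPM. Outside the members they summed to 752 CPM in mutant and 1.21 CPM in control in all other ECs. In non-endothelial cells they were at 1588 and 1.88 CPM. Over all members, Afp, Alb and Apoa2 were called higher even without the cell of highest count of each gene. Of 34 mutant cells marked as hepatoblasts, 79.4% held Prox1 and 88.2% held Reln, both rule genes. Whether liver transcripts bear on these counts in members was not tested. In Prox1-high cells without the cell of highest count of each gene in each library, 122 genes were called lower in place of 186. Of these, 115 were shared. Called higher were 100 in place of 112, of which 84 were shared. Of the 8 lymphatic genes called lower, Ccl21a, Gja1, Maf, Mmrn1, Nrp2 and Thy1 were still called without that cell, as were Reln and Flt4 of the rule. Itga9 was at -0.80 (-1.14 to -0.47) and Stab1 at -0.85 (-1.15 to -0.56) without it, and both were no longer called. At least 3 markers of another cell type were found in 4 of 22 control and 7 of 41 mutant Prox1-high cells. Without these cells, 116 genes were called higher and 175 lower, the lymphatic median was -0.61 (12 of 18 lower) and the hypoxia-inducible median 1.99.

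Guidance and chemokine genes include many that steer lymphatic and blood vessel growth. Of 16 measured in Prox1-high cells, 11 were lower in mutant and 5 were called lower, with a median of -0.95 (10 lower and 4 called with either other scaling). Over all measured genes 5116 of 9310 were lower, and 7.83% of the tested genes were called lower. The semaphorin ligand gene Sema3d was at 113 and 20.7 CPM (-2.46, -3.19 to -1.77), its receptor gene Plxnd1 at 411 and 203 CPM (-1.02, 33% of control UMIs from 1 cell), Plxna2 at 109 and 40.5 CPM and Sema6a at 275 and 146 CPM. The netrin receptor gene Unc5b was at 212 and 82.8 CPM (-1.36) and was also lower in ECs without Prox1, at 93.3 and 42.0 CPM. Without the cell of highest count of each gene, Sema6a and Unc5b were still called lower, and Sema3d, Plxnd1 and Plxna2 were not. Of genes on other lists, the arterial Notch1 was at 164 and 68.1 CPM (-1.27), and Lama4, a laminin gene of the vascular basement membrane, at 686 and 224 CPM (-1.61), likewise lower in ECs without Prox1 (-1.10).

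Of the venous and capillary genes that the EC rule did not use, 8 were measured in Prox1-high cells, of which 6 were higher in mutant and 0 called, with a median of 0.25 beside 0.36 in ECs without Prox1. Plvap, which forms the diaphragms of fenestrated vessels and belongs to the EC rule, was at 225 CPM in control and 526 CPM in mutant (log2 ratio 1.22), and it was detected in 14 of 22 control and 39 of 41 mutant cells. Emcn, a sialomucin of veins and capillaries and another rule gene, was at 168 and 391 CPM (1.22), with 47% of the control UMIs from 1 cell. In ECs without Prox1, Plvap was at 667 and 514 CPM, the other direction, so that its ratios differed by 1.60 (1.32 to 1.88). The arterial list had a median of -0.08, and of 0.06 or 0.05 with the other scalings. Hapln1, a hyaluronan link protein gene, was at 77.3 and 297 CPM (1.94) and was found, after thinning, in 9.09% of control and 52.5% of mutant Prox1-high cells. In ECs without Prox1 Hapln1 was found after thinning in 20.9% of control and 37.1% of mutant cells. Nts was at 120 and 965 CPM (3.01), beside 14.3 and 285 CPM in ECs without Prox1.

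Hypoxia-inducible genes, which the factor HIF switches on at low oxygen and which PI3K signalling can also raise, were higher in the mutant library in members as in other ECs. Of all 9310 genes measured in Prox1-high cells, 112 were called higher (4.72% of the 2374 tested). In these cells 33 of 34 measured hypoxia-inducible genes were higher and 16 were called. The median log2 ratio was 1.84, beside 2.12 in Prox1-low members and 2.22 in ECs without Prox1, and 0.81 when only female-like Prox1-high cells were compared (19 of 24 higher, 2 called). Between the female-like cells of all other ECs the median was 2.00 (36 of 39 higher). Per cell, the summed list had a median of 11.9 UMIs per 10000 in control Prox1-high cells (4.02 to 17.4) and 25.9 in mutant ones (8.26 to 199). The ranges overlapped, and the upper quartile of the mutant cells was 65.5, beyond every control cell. The median of mutant Prox1-low cells was higher, at 48.8.

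Vegfa (chromosome 17, 46016993 to 46032369), the main growth factor of blood vessels, was detected in 9 of 22 control and 31 of 41 mutant Prox1-high cells. Its level was 24.7 CPM (13.8 to 40.7) and 157 CPM (135 to 181), a ratio of 2.67 (1.91 to 3.54). Between female-like Prox1-high cells alone the ratio of Vegfa was 0.14 (-1.18 to 1.39), and the call was lost. The glucose transporter gene Slc2a1 was at 37.8 and 309 CPM (3.03, 2.42 to 3.71) in Prox1-high cells and at 184 and 723 CPM in ECs without Prox1. In both libraries it was thus lower in Prox1-high cells, and its ratio was larger there by 1.03 (0.41 to 1.65). The lactate exporter gene Slc16a3 was detected in 1 control and 31 mutant cells, at 1.64 and 163 CPM, and the mitophagy gene Bnip3 at 9.86 and 273 CPM (4.79, 3.65 to 6.25). Adm, the adrenomedullin gene, whose receptor is needed for lymphatic growth, was at 1.64 and 69.0 CPM in Prox1-high cells and at 7.77 and 197 CPM in ECs without Prox1. Its receptor genes Calcrl and Ramp2 were at 138 and 238 CPM (0.78, 54% of control UMIs from 1 cell) and at 584 and 913 CPM (0.65).

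All 17 measured glycolysis genes were higher in mutant Prox1-high cells, with a median ratio of 1.48 and 10 called. The phosphoglycerate kinase gene Pgk1 was at 202 and 817 CPM (2.01, 1.74 to 2.30), the lactate dehydrogenase gene Ldha at 469 and 1517 CPM (1.70) and the aldolase gene Aldoa at 467 and 1449 CPM (1.63). Within both libraries glycolysis genes were somewhat lower in Prox1-high members than in ECs without Prox1, with medians of -0.39 in control (15 of 17 lower) and -0.24 in mutant (20 of 25 lower). Of the genes of the unfolded protein response in the endoplasmic reticulum, 15 of 15 were higher in mutant Prox1-high cells (median 0.77), and 10 of 12 heat shock genes (median 0.82). Hspa1a was at 1.64 and 778 CPM and its neighbour and near-copy Hspa1b at 4.93 and 622 CPM, so their separate levels are uncertain, while the constitutive Hspa8 was at 751 and 706 CPM.

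**Figure D5:**
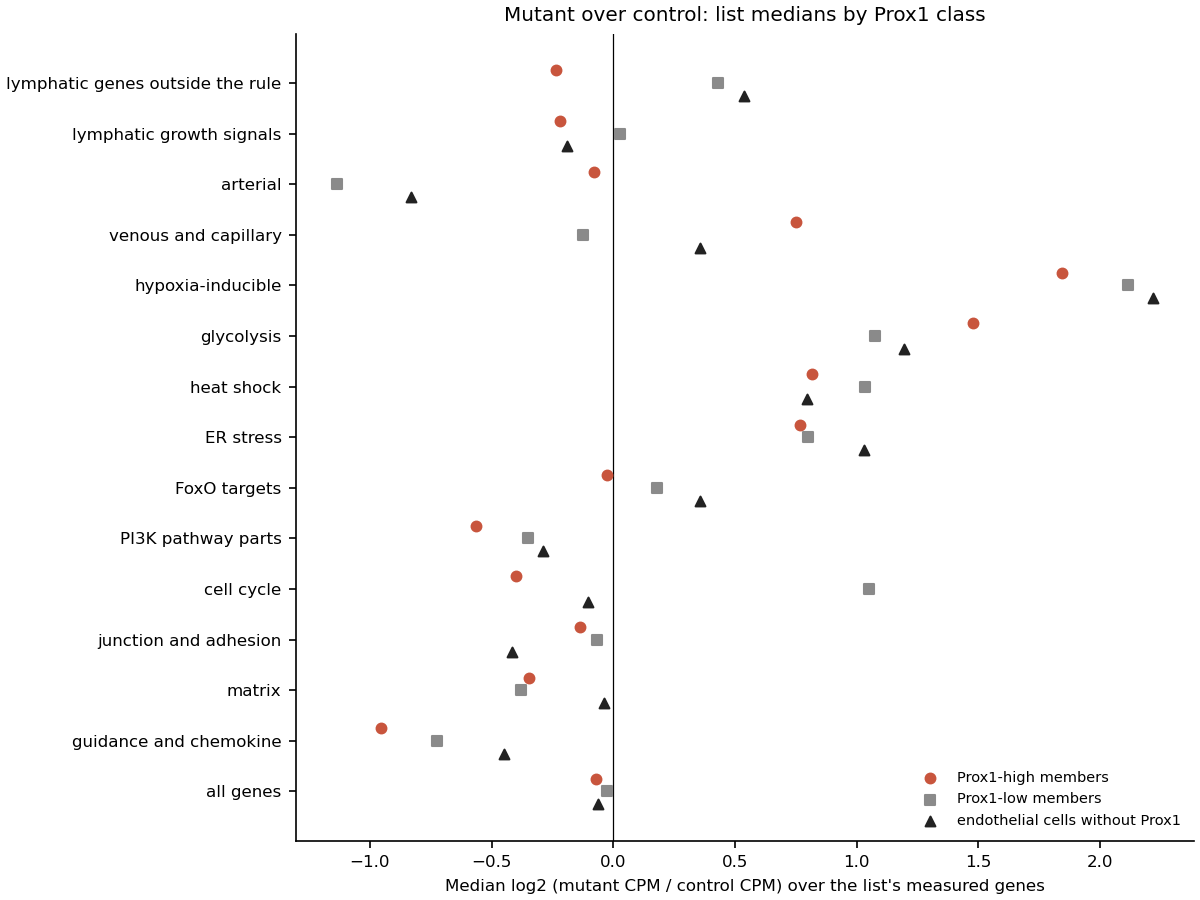
Median log2 ratio of mutant over control CPM for lists of genes (x axis) in Prox1-high members (circles), Prox1-low members (squares) and ECs without Prox1 (triangles). Hypoxia-inducible, glycolysis, heat shock and ER stress lists lie above 0.7 in every class; the lymphatic list lies at -0.24 in Prox1-high members and at 0.43 and 0.54 in the other classes.

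Of all 9310 genes measured in Prox1-high cells, 186 were called lower in mutant (7.83% of the 2374 tested). Of 16 cell cycle genes, 12 were lower there and 5 called lower (median -0.40, 11 lower and 3 called with either other scaling). The 5 included Mki67 at 339 and 156 CPM (-1.12, -1.41 to -0.82), Top2a at 373 and 199 CPM, Cenpf at 240 and 78.4 CPM and the kinase gene Cdk1 at 196 and 84.5 CPM. Without the cell of highest count of each gene, Mki67, Cenpf and Cdk1 were still called lower and Top2a was not. By cells, a UMI of Mki67 or Top2a was found after thinning in 68.2% of control (45.1 to 86.1%) and 47.5% of mutant Prox1-high cells (31.5 to 63.9%), intervals that overlap. In ECs without Prox1 these were 48.2% and 46.2%. The 9 control Prox1-low cells went against this, and the cell cycle median in Prox1-low members was 1.05.

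Among the growth signals, Vegfc, the main lymphatic growth factor, was nearly absent from control Prox1-high cells, with 2 UMIs (3.29 CPM) against 26 in mutant (22.4 CPM). In ECs without Prox1 it was at 104 and 40.1 CPM, the other direction. Kdr (VEGFR2) was at 676 and 534 CPM (-0.34) and Tie1 at 345 and 276 CPM. Itgb1, the partner subunit of Itga9, was at 567 and 858 CPM (0.60, 0.42 to 0.78). Pik3ca, whose counts do not separate the transgene from the endogenous gene, was at 82.2 CPM in control (61.0 to 108) and 44.0 CPM in mutant (32.7 to 57.8) Prox1-high cells, and at 39.3 and 43.1 CPM in ECs without Prox1. Of all 9310 genes measured in Prox1-high cells, 186 were called lower (7.83% of those tested). Over 16 measured parts of the PI3K pathway the median was -0.56, with 14 lower and 1 called. The called gene was Inpp4b (a phosphatase gene that turns the pathway down), at 176 and 62.9 CPM (-1.48, -1.93 to -1.04).

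The genotype ratio of Prox1-high members was set against that of ECs without Prox1 in the same libraries. The interval of the difference lay below 0 for 557 of 2633 genes (21.2%) and above 0 for 435 (16.5%). For all members against all other ECs these shares were 21.8% and 18.9%. Among the lymphatic genes the difference was -3.13 for Thy1, -2.26 for Itga9, -2.20 for Stab1, -2.10 for Gja1, -1.88 for Maf, -1.37 for Nrp2, -1.13 for Nr2f2 and -0.89 for Mmrn1, each with an interval below 0. Relative to ECs without Prox1, these 8 genes, which include Nr2f2 but not Ccl21a, were thus lower in mutant than in control Prox1-high cells. For Itga9 and Stab1 the difference includes a rise in ECs without Prox1 (1.09 and 1.19), and Nr2f2 had a ratio of only -0.19 in Prox1-high members. The difference was -0.44 for Vegfa (-1.32 to 0.44) and -0.06 for Pgk1 (-0.36 to 0.24). For these genes no difference between the classes was detectable at this depth when cells were not separated by sex. Mrc1 had a difference of -7.78 and Reln, a rule gene, of -2.73. On the positive side stood Hspa1a (4.43), Vegfc (3.85), Plvap, a gene of the EC rule (1.60), and Slc2a1 (1.03). Genes of the 5 largest differences on either side were Gm41609, Hspa1a, Nrg1, Vegfc and Nckap5, and Btg4, Slc7a14, Mrc1, Hs6st3 and Ptx3.

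Sex moved with genotype. All 22 control Prox1-high cells were female-like, and of the 41 mutant ones 12 were female-like, 28 male-like and 1 unassigned. Between the 22 and 12 female-like cells, the lymphatic genes had a median of -1.17 (13 of 17 lower, 8 called lower). Of the 2403 tested genes 8.11% were called lower and 3.75% higher, and the median of all measured genes was -0.14. Thy1 had a ratio of -2.53, Ccl21a of -1.95 and Nrp2 of -1.39, with intervals below 0. The second markers Reln and Flt4, which chose the members, had ratios of -2.19 and -1.34. Of the genes above, Slc2a1 had a ratio of 2.35 in these cells and Pgk1 of 1.37, and the 14 measured glycolysis genes were all higher, with a median of 0.97. Within the mutant library, male-like Prox1-high cells exceeded female-like ones by a median of 1.62 for hypoxia-inducible genes, 0.81 for glycolysis genes and 0.38 for the lymphatic genes (14 of 17 higher). In all other mutant ECs these medians were 0.46, 0.25 and 0.04. How much of the Vegfa and lymphatic differences belongs to sex, embryo or genotype cannot be told apart.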

How the data were processed

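Single-cell 5′ libraries were made with the 10x Genomics kit. Reads were processed by the authors with Cell Ranger 7.1.0 on the GRCm38 genome, and the raw UMI counts of each gene in each cell, as deposited, are used here without change. Per library, 4505 and 5357 cells with 66935720 and 73915525 UMIs were deposited for control and mutant, and 2783 and 3489 passed the filters on genes and mitochondrial transcripts.

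The members, the gene lists, the rule for named genes and the comparisons were chosen with earlier results of these data known, and the limit of 4 Prox1 UMIs after the counts were seen. The UMIs of a gene were added up over the cells of a class in a library and related to all UMIs of that class (CPM). The 95% intervals come from the exact Poisson distribution (CPM), the binomial distribution given the summed count (ratios), Clopper and Pearson's method (shares) and, for a difference of 2 ratios, normal approximations with 0.5 added to each count. List medians leave out genes under 20 UMIs. With 1 library per genotype no test was made. Sex was called from Xist against the Y-linked Ddx3y, Eif2s3y, Kdm5d and Uty, as female-like or male-like where UMIs of only 1 side were present.

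Genes are named when they belong to the rule or to a list, are named by the study for its EC cluster, are among the 8 largest called differences on either side of a comparison or the 5 largest differences of genotype ratios, or are called in opposite directions in 2 classes. For Prox1-high cells this rule was added after their values were seen. Gene positions are those of GENCODE on GRCm38. Scrublet (scanpy 1.11.5) at its own threshold marked 0 and 1 cells and was taken not to have worked, so doublets were kept, and in an alternative the 162 and 230 cells of highest score were removed. Other alternatives changed the filters, the EC and member rules, depth, weight of cells, scaling (edgeR 4.0.16 TMM factor, median ratio) and minimum counts. The steps ran in Python 3.11.15 with scipy 1.17.1 and were tested on simulated data.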

Additional observations from a re-analysis of the deposited data

Results flagged for a closer look

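5 genes were called in opposite directions between genotypes in lymphatic-type cells and in other ECs. Each class is 1 sum of cells per library, so the difference between the classes has a counting interval but was not tested over replicates.

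Itga9 had a log2 ratio of mutant to control of -1.15 in all members and 0.96 in all other ECs, and of -1.18 in Prox1-high members and 1.09 in ECs without Prox1. Stab1 had ratios of -1.02 in Prox1-high members and 1.19 in ECs without Prox1. In mutant, Stab1 was at 187 CPM in Prox1-high members and 180 CPM in ECs without Prox1, and Itga9 at 154 and 107 CPM. Without the cell of highest count in each library, Itga9 had a ratio of -0.80 both in all members and in Prox1-high members, and Stab1 of -0.85 in Prox1-high members, and these were no longer called.

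Zfpm2, a GATA cofactor gene of heart and vessel development, had ratios of -0.98 in all members (909 and 462 CPM) and 0.83 in all other ECs (280 and 499 CPM), and of -1.19 in Prox1-high members and 0.73 in ECs without Prox1. Pde7b, a cyclic AMP phosphodiesterase gene, had ratios of -1.65 (306 and 97.4 CPM) and 1.75 (32.8 and 110 CPM) in Prox1-high members and ECs without Prox1. Col3a1, a fibrillar collagen gene, had ratios of -1.42 (247 and 92.2 CPM) and 1.11 (57.4 and 124 CPM). More than 50% of its UMIs in the Prox1-high cells of each library lay in 1 cell, at 56.7% in control and 54.2% in mutant. Without that cell in each library the ratio was -1.38 and still called.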

How the results depend on the processing

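No paired analysis was possible because there was 1 library per genotype and the labels carry no replicate numbers. The share of members among ECs depended on the rule and on depth. It was 8.45% in control and 6.83% in mutant with cells thinned to 5000 UMIs, 13.1% and 8.93% with at least 2 second markers, and 12.4% and 5.55% in mutant with at least 2 and at least 4 Prox1 UMIs. Calls in members numbered 82 higher without cells holding Mki67 or Top2a, 369 higher and 943 lower with no CPM minimum, 374 lower with at least 2 second markers and 109 lower without the top cell of each gene. In Prox1-high members there were 122 lower without the top cell, and 143 and 146 lower with the TMM factor and the median ratio. The hypoxia-inducible median was 1.49 in female-like members and 0.81 in female-like Prox1-high members. The glycolysis median was 1.75 with at least 2 Prox1 UMIs, 1.67 with at least 2 second markers and 1.77 without cells holding Mki67 or Top2a. The lymphatic median was 0.43 in Prox1-low members and -1.17 in female-like Prox1-high members. Direction reversed in Prox1-low members for Ccl21a (at least 0.43, a lower bound, since control had 0 UMIs and entered at the floor of 3), Mmrn1 (1.02), Nrp2 (0.029), Prox1 (0.93) and Reln (0.59), and in Prox1-high members for Prox1 with the TMM factor (0.018) and the median ratio (0.015). Against other ECs, 10 genes were higher and 8 lower in both libraries with at least 2 Prox1 UMIs, and 23 and 45 when Prox1-high members were set against ECs without Prox1. In thinned cells 233 differences of genotype ratios lay above 0. Of the values of single genes under the alternatives, 540 stayed within the counting interval, 320 left it and 7 were counted as reversed. A reversal was counted only for genes called in all members, so the 320 also hold changes of sign in genes not called. Fxyd6, for example, was at -0.26 in all members and 0.84 in Prox1-high members. Alternatives that use the limit of 4 Prox1 UMIs, leave out single cells or rescale Prox1-high cells were chosen after seeing the data. The cause of these shifts was not tested. The control Prox1-low class is limited by its 9 cells, with 345149 UMIs in all. Per cell it was deeper than the mutant Prox1-low class, with a median of 48283 UMIs against 24542.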

Other observations

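Genes of the transcription factor FOXO, which PI3K signalling holds out of the nucleus, had a median log2 ratio of -0.03 in Prox1-high members (5 of 10 measured higher, 1 called), beside 0.36 in ECs without Prox1. Over all genes in Prox1-high members, 5116 of 9310 were lower, and 7.83% of those tested were called lower and 4.72% higher. Of 17 matrix genes measured in Prox1-high members, 11 were lower (median -0.35), and of 11 junction genes 6 (median -0.14). Of 10 endocardial genes, 6 were lower in Prox1-high members and 3 called lower (median -0.14), whereas 7 of 10 were higher in ECs without Prox1 (median 0.69). Of 13 immediate early genes, which respond to stimulation and to tissue dissociation, 7 were higher in Prox1-high members and 2 called (median 0.13).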
